A study of Mus musculus with 33 samples.

Results

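Collagen genes encode the chains of the triple-helical proteins that build the extracellular matrix. They were taken here as every row of the deposited mouse expression table whose symbol has the form Col, a number, a and a number, with no expression value used in the choice. The rule found 43 genes among 37973, of which 11 encode fibrillar collagens, 9 encode collagens of basement membranes and 23 encode other collagens. Each level below is in FPKM, the reads of a gene per kilobase of transcript and per total of mapped reads, so levels can be set side by side between genes. Genes were placed on GRCm38 by their identifiers in the GENCODE vM21 annotation.

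A collagen molecule is a trimer of chains, and several types need the products of different genes, so that Col1a1 and Col1a2 chains together make type I collagen. Fibrillar collagens give tissue its tensile strength and are made in bulk by fibroblasts, type IV collagen forms the sheet-like network of basement membranes, and others link, coat or anchor these structures. When fibroblasts are reprogrammed towards pluripotency, they lose the Thy1 surface protein and their mesenchymal program, then gain the SSEA1 surface antigen, and last switch on an Oct4 reporter.

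The study followed reprogramming of primary mouse embryonic fibroblasts by RNA-seq of polyadenylated RNA, in cells that overexpressed the early embryonic chromatin proteins Dppa2 and Dppa4 (Dppa2/4 cells) and in cells given a control overexpression (control cells). Fibroblasts came from 14-15dpc embryos, were transduced with lentivirus, and all cultures received doxycycline at 1 µg/ml. In 30 libraries, 17 from Dppa2/4 cells and 13 from control cells, the genotype was Col1a1-OSKM+/-; Rosa26-rtTA+/-; Oct4-GFP+/-, so a doxycycline-inducible cassette of Oct4, Sox2, Klf4 and Myc (OSKM) sits in 1 allele of the Col1a1 locus itself. The remaining 2 libraries, 1 of Dppa2/4 cells and 1 of control cells, were rtTA-MEF cells of the genotype Rosa26-rtTA+/-; Oct4-GFP+/-, which lack the cassette. Cells were sorted on days 2, 4, 8, 11 and 14 into Oct4-reporter-positive (GFP+), Thy1-SSEA1+, Thy1+SSEA1+, Thy1-SSEA1- and Thy1+SSEA1- gates. The numbers of GFP+, Thy1-SSEA1+, Thy1+SSEA1+, Thy1-SSEA1- and Thy1+SSEA1- libraries were 5, 6, 2, 9 and 8, and the Thy1+SSEA1+ ones are all of Dppa2/4 cells. How many embryos or cultures stand behind a library is not given in the sources used here.

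A control day 11 Thy1+SSEA1- sample that the labels list was not analysed here. There was at most 1 library for each combination of arm, day and gate, so no library has a replicate of its own kind. Combinations of day and gate (strata) served as the repeats for Dppa2/4 against control, and pairs of the same arm and day for one gate against another. The p-values measure the spread between those strata or pairs. Strata of the same day are gates of the same arm and day, yet the fit took their differences between arms as separate. The strata are thus not independent repeats of the overexpression, and p-values do not measure the spread between such repeats. The depth implied by the smallest steps of the FPKM values, in units of 1e6 fragments, was 21.4 to 42.7 in the OSKM libraries, and 14.1 in Dppa2/4 and 16.2 in control rtTA-MEF cells. The check of the overexpressed genes flagged 1 library. The library labelled Dppa2/4 day 4 Thy1+SSEA1- held Dppa2 at 0.354 FPKM and Dppa4 at 0.409 FPKM, whereas Dppa2 was 43.2 to 612 FPKM in the other Dppa2/4 OSKM libraries and 0.149 to 0.916 FPKM in control SSEA1- libraries. Counts of collagen calls that rest on it, and calls that change without it, are given with and without it. Control Thy1-SSEA1+ libraries held Dppa2 too, at 14.1, 6.40 and 11.4 FPKM (days 8, 11 and 14). In GFP+ cells of days 11 and 14 Dppa2 was 66.1 and 45.4 FPKM in control and 61.5 and 54.0 FPKM in Dppa2/4 libraries. The arms of the GFP+ strata thus held similar Dppa2 levels. The description of the control day 11 GFP+ library names another gate than its title, which was followed here. The rtTA-MEF libraries are dated day 2 in their titles and day 1 in their descriptions.

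Promoter windows from RefSeq on GRCm38.p6, running from 250 bases before to 50 after each annotated start, were found for 35 of the 43 genes, giving 38 windows. The genes without one are Col1a1, Col2a1, Col4a3, Col5a2, Col9a3, Col12a1, Col14a1 and Col22a1. The windows printed here belong to genes that the results turn on. The first pair, Col4a1 and Col4a2, is shown because the genes lie head to head, with starts 21 bp apart on opposite strands of chromosome 8, and their windows overlap by 78 bases. Capitals mark matches to the classical promoter words on either strand. The first word searched was CCAAT, which reads ATTGG on the opposite strand. The GC-box word was GGGCGG, which reads CCGCCC on the opposite strand. The last word searched was TATAAA, which reads TTTATA on the opposite strand.
Col4a1, chr8:11312777-11313076, minus strand: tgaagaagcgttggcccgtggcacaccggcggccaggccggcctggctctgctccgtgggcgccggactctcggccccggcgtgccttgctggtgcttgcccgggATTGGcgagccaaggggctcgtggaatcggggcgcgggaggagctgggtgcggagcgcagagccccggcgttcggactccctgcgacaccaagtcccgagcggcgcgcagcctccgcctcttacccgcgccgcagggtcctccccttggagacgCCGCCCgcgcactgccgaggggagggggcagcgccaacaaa
Col4a2, chr8:11312555-11312854, plus strand: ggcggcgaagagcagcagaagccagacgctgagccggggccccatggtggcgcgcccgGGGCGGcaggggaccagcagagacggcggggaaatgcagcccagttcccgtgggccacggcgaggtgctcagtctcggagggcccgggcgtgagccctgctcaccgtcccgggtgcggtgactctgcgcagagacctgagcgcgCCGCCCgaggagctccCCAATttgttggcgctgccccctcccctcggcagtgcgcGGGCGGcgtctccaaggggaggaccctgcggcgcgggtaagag
The major fibrillar chains are shown next, since Col1a2 and Col3a1 were among the collagens with the largest differences between gates.
Col1a2, chr6:4505368-4505667, plus strand: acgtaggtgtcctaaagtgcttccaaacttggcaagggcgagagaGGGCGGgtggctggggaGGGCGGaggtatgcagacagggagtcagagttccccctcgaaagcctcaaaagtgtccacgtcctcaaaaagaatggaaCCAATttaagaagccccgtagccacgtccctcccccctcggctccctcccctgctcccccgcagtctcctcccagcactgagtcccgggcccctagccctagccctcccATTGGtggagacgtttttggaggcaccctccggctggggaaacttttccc
Col3a1, chr1:45311288-45311587, plus strand: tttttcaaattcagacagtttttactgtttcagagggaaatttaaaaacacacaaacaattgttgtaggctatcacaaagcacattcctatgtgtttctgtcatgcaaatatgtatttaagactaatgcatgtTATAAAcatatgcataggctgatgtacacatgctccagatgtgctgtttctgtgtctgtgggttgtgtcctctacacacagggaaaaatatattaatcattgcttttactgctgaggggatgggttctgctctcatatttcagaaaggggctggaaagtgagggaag
Col18a1, with 2 annotated starts, is shown because it did not pass in the gate comparisons where most collagens fell, and Col7a1 because it differed most steadily between Dppa2/4 and control cells.
Col18a1, chr10:77166481-77166780, minus strand: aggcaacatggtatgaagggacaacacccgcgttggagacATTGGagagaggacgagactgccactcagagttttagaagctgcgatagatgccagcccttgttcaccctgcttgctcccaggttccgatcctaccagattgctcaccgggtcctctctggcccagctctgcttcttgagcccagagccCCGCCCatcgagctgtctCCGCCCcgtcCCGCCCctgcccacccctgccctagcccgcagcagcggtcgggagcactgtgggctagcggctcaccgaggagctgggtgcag
Col18a1, chr10:77113656-77113955, minus strand: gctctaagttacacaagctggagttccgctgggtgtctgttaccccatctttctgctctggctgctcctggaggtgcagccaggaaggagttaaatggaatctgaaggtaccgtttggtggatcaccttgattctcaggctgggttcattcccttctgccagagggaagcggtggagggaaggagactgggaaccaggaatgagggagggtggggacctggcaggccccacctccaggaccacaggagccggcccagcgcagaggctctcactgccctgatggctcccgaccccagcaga
Col7a1, chr9:108953336-108953635, plus strand: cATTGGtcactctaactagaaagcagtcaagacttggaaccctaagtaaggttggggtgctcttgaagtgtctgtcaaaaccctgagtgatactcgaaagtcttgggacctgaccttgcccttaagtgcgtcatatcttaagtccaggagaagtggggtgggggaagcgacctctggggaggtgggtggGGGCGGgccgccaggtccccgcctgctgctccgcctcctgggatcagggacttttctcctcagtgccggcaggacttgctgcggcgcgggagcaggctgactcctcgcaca

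The GC-box word stood in 23 of the 38 collagen windows, or 60.5%, against 35.7% of all 32851 windows. The CCAAT word stood in 34.2% of collagen windows against 37.4% of all, and the TATAAA word in 13.2% against 13.6%. The windows differed widely in CpG dinucleotides. The Col4a1 window held 37 and the Col4a2 window 33, the Col1a2 window held 13 and the Col3a1 window 0, against a median of 7 over all windows. The Col18a1 windows held 16 and 6, and the Col7a1 window 12. A match describes the letters of a window, and no factor was measured at it.

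Mean levels of the collagen genes over the 30 OSKM libraries ran between 0.00824 FPKM (Col19a1) and 339 FPKM (Col1a1). Of the 43, 6 genes averaged at least 100 FPKM, 12 averaged 10 to 100, 7 averaged 1 to 10 and 18 averaged under 1. Col1a1 and Col1a2, the chains of type I collagen, led with means of 339 and 338 FPKM, followed by Col3a1, the chain of type III collagen of elastic tissue, at 230 FPKM and Col5a2, a type V chain that regulates fibril width, at 179 FPKM. Col6a3 at 126 FPKM and Col6a1 at 110 FPKM, chains of the beaded filaments of type VI collagen, came next. The basement membrane genes Col4a2, Col18a1 and Col4a1 averaged 75.0, 64.9 and 64.3 FPKM.

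The sum over all collagen genes was lowest in GFP+ libraries, at 108 to 164 FPKM with a median of 119 FPKM. It was 180 to 726 FPKM with a median of 347 FPKM in Thy1-SSEA1+ libraries, and 557 and 625 FPKM in the Thy1+SSEA1+ libraries. It reached 1314 to 9016 FPKM (median 2354) in Thy1-SSEA1- libraries and 880 to 3371 FPKM (median 2550) in Thy1+SSEA1- libraries. GFP+ libraries lay below every other OSKM library, and no Thy1-SSEA1+ library reached the lowest SSEA1- library. The rtTA-MEF cells, without the cassette, stood at 4458 FPKM (Dppa2/4) and 3757 FPKM (control), within the range of Thy1-SSEA1- libraries.

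**Figure D1:**
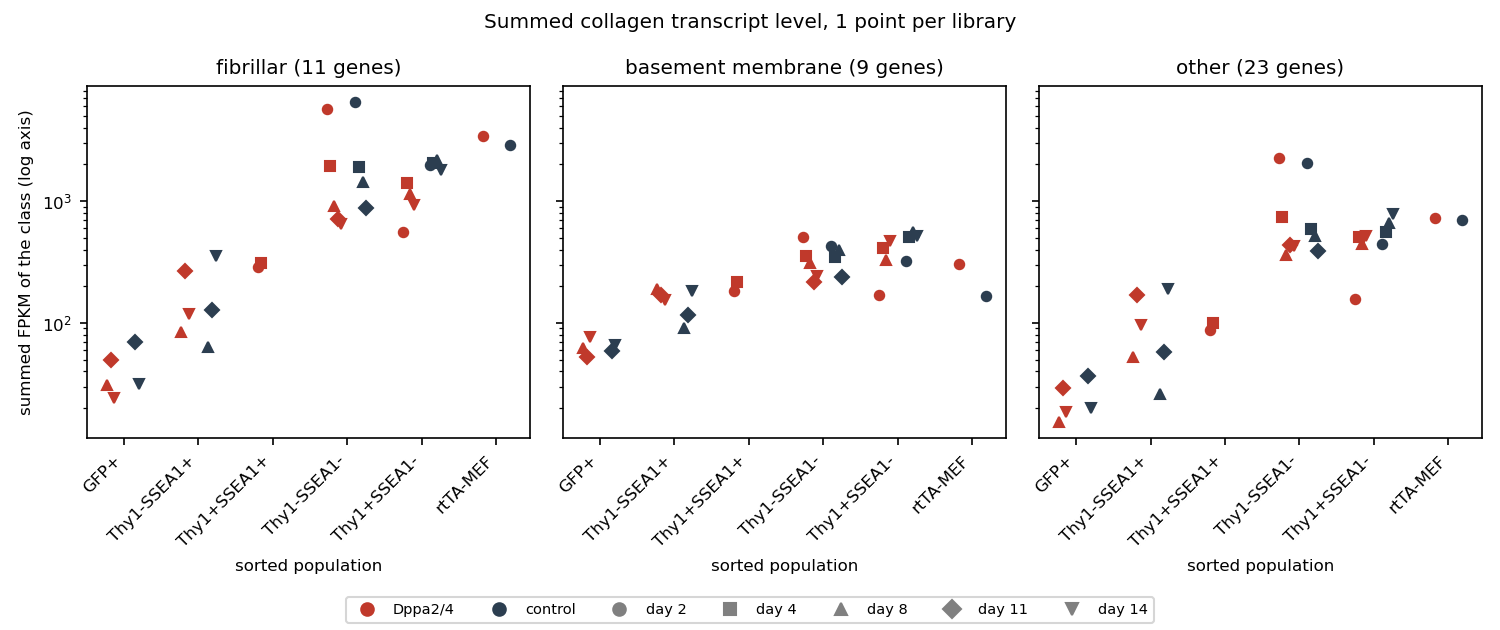
Summed FPKM of the fibrillar, basement membrane and other collagen genes in each library (log axis), by sorting gate, with Dppa2/4 and control libraries as separate points. The fibrillar sums of GFP+ libraries lie below those of the SSEA1- gates, and the basement membrane sums of GFP+ and Thy1-SSEA1+ libraries lie closer to those of the SSEA1- gates than the fibrillar sums do.

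The makeup of the sum differed with the gate. Fibrillar collagens made up a median of 28.5% of the collagen sum in GFP+ libraries and 38.9% in Thy1-SSEA1+ libraries, against 61.0% in Thy1-SSEA1- and 61.8% in Thy1+SSEA1- libraries. Basement membrane collagens made up a median of 56.1% in GFP+ and 40.1% in Thy1-SSEA1+ libraries, against 15.9% in Thy1-SSEA1- and 16.8% in Thy1+SSEA1- libraries. In GFP+ libraries 1 gene, Col18a1, whose product carries the endostatin fragment at its end, gave 29.1% to 49.5% of all collagen FPKM and was the highest collagen in all 5. The highest collagen of each SSEA1- library was Col1a1, Col1a2 or Col3a1.

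**Figure D2:**
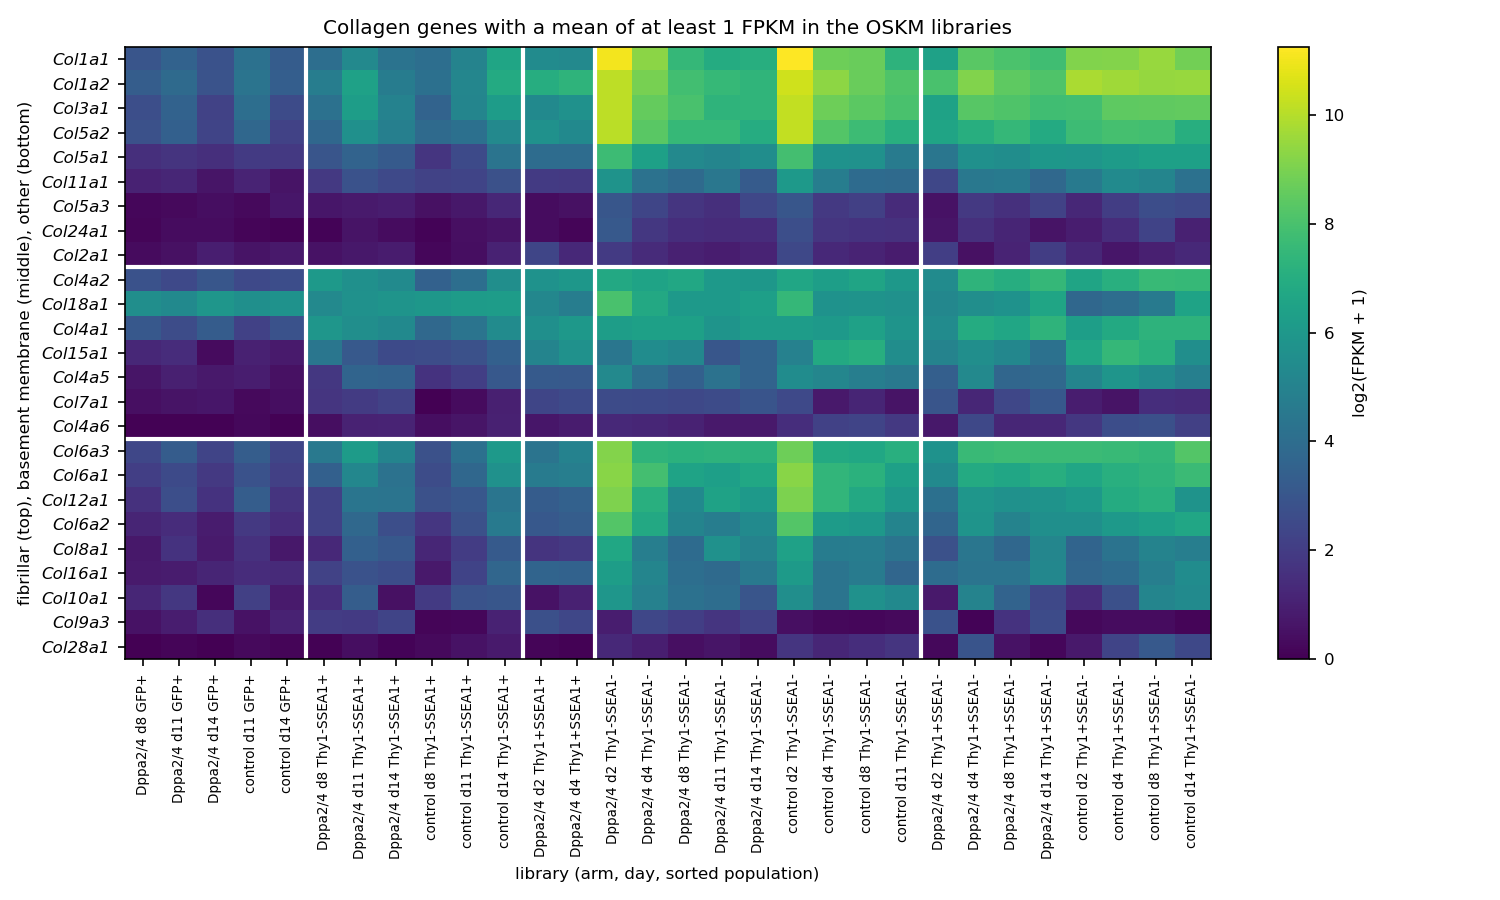
Levels of the 25 collagen genes with a mean of at least 1 FPKM (rows, grouped by class) in each of the 30 OSKM libraries (columns, grouped by gate), as log2(FPKM + 1), where brighter is higher. The rows with the highest means are Col1a1, Col1a2, Col3a1 and Col5a2, and Col18a1 keeps a similar level across the GFP+ columns, at 39.6 to 58.9 FPKM.

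The step to the Oct4 reporter was examined as GFP+ against Thy1-SSEA1+ cells of the same arm and day, in 5 pairs (Dppa2/4 days 8, 11 and 14, control days 11 and 14). Differences here and below are on the log2(FPKM + 1) scale, which understates folds of low genes, and come from limma across all genes with Benjamini-Hochberg adjustment and a threshold of 0.05 on the adjusted p. Of the 22 collagen genes tested, 19 fell and 0 rose, where 25.9% of all 15347 genes tested fell and 19.5% rose. The median difference was -1.66 over the collagen genes and -0.06 over all genes. All 6 fibrillar genes tested fell, as did 6 of 7 basement membrane genes and 7 of 9 others. Among these falls, Col4a5, Col4a6 and Col7a1 were under 1 FPKM in every GFP+ library. They entered the test, which needed 1 FPKM in 2 libraries, only through Thy1-SSEA1+ libraries. A fall was thus nearly the only outcome open to them.

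Col4a2 and Col4a1, the chains of the common type IV network, had the largest differences, and Col4a6, another type IV chain, the smallest of the 19 falls (-0.75). Col4a1 was 7.56, 5.03 and 8.56 FPKM in Dppa2/4 GFP+ libraries (days 8, 11 and 14) and 3.46 and 6.03 FPKM in control GFP+ libraries (days 11 and 14). In the matching Thy1-SSEA1+ libraries it was 59.9, 45.8 and 38.9 FPKM (Dppa2/4) and 18.9 and 41.5 FPKM (control). The groups did not overlap, and the difference was -2.52 (SE 0.16, limma adjusted p = 0.000769). Col4a2, its partner chain, averaged 5.56 FPKM in GFP+ and 43.2 FPKM in Thy1-SSEA1+ libraries, a difference of -2.63 (SE 0.25, adjusted p = 0.00121). Col4a5, an X-linked type IV chain, averaged 0.704 FPKM in GFP+ and 7.10 FPKM in Thy1-SSEA1+ libraries (-2.08, SE 0.31). Col15a1, a proteoglycan-like collagen at the outer face of basement membranes, averaged 1.01 FPKM in GFP+ and 9.84 FPKM in Thy1-SSEA1+ libraries (-2.31, SE 0.24).

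Fibrillar and filament genes fell as well. Col1a1 averaged 9.92 FPKM in GFP+ and 40.2 FPKM in Thy1-SSEA1+ libraries (-1.70, SE 0.36, adjusted p = 0.0108). Col3a1 averaged 8.16 FPKM in GFP+ and 46.4 FPKM in Thy1-SSEA1+ libraries (-2.33, SE 0.38). The type VI chains Col6a3, Col6a1 and Col6a2 differed by -2.46, -2.19 and -1.87. Those that did not pass were Col18a1, Col9a2 and Col9a3. Col18a1 averaged 49.0 FPKM in GFP+ and 57.9 FPKM in Thy1-SSEA1+ libraries (-0.21, SE 0.15, adjusted p = 0.281), with GFP+ higher in 2 of 5 pairs. Col9a2, a type IX chain that decorates cartilage fibrils, averaged 1.04 FPKM in GFP+ and 0.561 FPKM in Thy1-SSEA1+ libraries and was higher in 5 of 5 pairs (0.35, SE 0.15, adjusted p = 0.0981). Leaving out single pairs left 14 to 18 collagens lower, and 2583 to 3699 of all genes. The collagen calls lost were among Col4a6, Col7a1, Col8a1, Col10a1 and Col12a1.

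The gain of SSEA1 was examined in Thy1-SSEA1+ against Thy1-SSEA1- cells (5 pairs) and in Thy1-SSEA1+ against Thy1+SSEA1- cells (4 pairs). These comparisons share their Thy1-SSEA1+ libraries with each other and with the step to GFP+, so their values are given side by side and not as independent evidence. Against Thy1-SSEA1-, 18 of 28 collagen genes fell and 0 rose (background 12.4% lower, 9.55% higher), and the median was -1.55 against 0.01 over all genes. Against Thy1+SSEA1-, 19 of 27 fell and 0 rose (background 13.5% lower, 10.6% higher), and the median was -2.26 against -0.04 over all genes.

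Fibrillar genes led both. Col1a1 was 15.9, 38.1 and 18.4 FPKM in Dppa2/4 Thy1-SSEA1+ libraries (days 8, 11 and 14) and 15.8 and 31.4 FPKM in control ones (days 8 and 11). In Thy1-SSEA1- libraries of the same arms and days it was 178, 121 and 133 FPKM (Dppa2/4) and 405 and 155 FPKM (control), so the groups did not overlap. The difference was -2.94 (SE 0.40, limma adjusted p = 0.00667), and against Thy1+SSEA1- libraries, with means of 36.8 FPKM in Thy1-SSEA1+ and 420 FPKM in Thy1+SSEA1-, it was -3.80 (SE 0.48, adjusted p = 0.0110). Col1a2 differed by -2.87 and -3.78, Col3a1 by -2.99 and -3.50, and Col5a2 by -2.90 and -2.86, against Thy1-SSEA1- and Thy1+SSEA1- cells in that order. Fibrillar genes that fell numbered 9 of 10 tested against Thy1-SSEA1- and 8 of 10 against Thy1+SSEA1-. Col27a1 was among them in both, and Col5a3 and Col24a1 were among those against Thy1-SSEA1-. In these comparisons the 3 genes were under 1 FPKM in every Thy1-SSEA1+ library and entered only through SSEA1- libraries.

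Among the other collagens, 8 of 11 fell against Thy1-SSEA1- and 7 of 10 against Thy1+SSEA1-. They included Col12a1, which coats fibrils (-2.79 and -2.69), Col8a1, a short chain of vessel walls (-2.53 and -2.47), Col10a1, the chain of hypertrophic cartilage (-2.43 and -2.40), Col16a1 (-2.03 and -2.61) and Col6a1 (-2.76 and -3.18). Col8a2, lower against Thy1-SSEA1- cells, was likewise under 1 FPKM in every Thy1-SSEA1+ library.

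The basement membrane class was split. Against Thy1-SSEA1- cells 1 of 7 fell, Col7a1, the anchoring fibril chain of skin, at 1.83 FPKM in Thy1-SSEA1+ and 3.52 FPKM in Thy1-SSEA1- libraries (-0.67, adjusted p = 0.0296). That call was lost when any 1 of the 5 pairs was left out. Col4a1 averaged 35.2 FPKM in Thy1-SSEA1+ and 70.8 FPKM in Thy1-SSEA1- libraries, with every pair lower (-1.16, SE 0.35, adjusted p = 0.0555). Against Thy1+SSEA1- cells 4 of 7 fell, and there Col4a1 averaged 38.3 FPKM in Thy1-SSEA1+ and 141 FPKM in Thy1+SSEA1- libraries (-2.01, SE 0.42, adjusted p = 0.0236). Col4a2 (-2.29), Col15a1 (-2.26) and Col4a5 (-1.93) were the others. Without the Dppa2/4 day 14 pair, Col4a1 (-2.02, adjusted p = 0.0603) and Col4a2 (-2.35, adjusted p = 0.0585) did not pass. Col18a1 was 55.1 FPKM in Thy1-SSEA1+ against 63.7 FPKM in Thy1-SSEA1- libraries (-0.21, adjusted p = 0.485), and 56.8 FPKM in Thy1-SSEA1+ against 65.9 FPKM in Thy1+SSEA1- libraries (-0.06, adjusted p = 0.921). Without a filter on low values 0 genes passed against Thy1+SSEA1-, where Col1a1 kept a difference of -3.80 at an adjusted p of 0.0556.

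Fibroblast markers that are not collagens moved with these results. Of 18, 16 fell in GFP+ against Thy1-SSEA1+ cells, 18 in Thy1-SSEA1+ against Thy1-SSEA1- and 17 in Thy1-SSEA1+ against Thy1+SSEA1-. Their summed level was 436 to 601 FPKM in GFP+, 722 to 3219 FPKM in Thy1-SSEA1+, 4887 to 14417 FPKM in Thy1-SSEA1- and 2807 to 13934 FPKM in Thy1+SSEA1- libraries. Over all genes 25.9%, 12.4% and 13.5% fell in these comparisons, in that order. Part of the list is low in many libraries. Fap reached 1 FPKM in 20 of the 30 OSKM libraries, Snai2 in 22, and Twist2 and Zeb2 in 23 each. Where such a gene entered a test only through the gate where it is high, a fall was nearly the only outcome open to it. The list includes Thy1, whose protein was sorted on in Thy1-SSEA1+ against Thy1+SSEA1- cells, so it is no independent marker there. In sorted bulk samples, fewer cells of a type and less RNA per cell cannot be told apart.

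Loss of Thy1 alone, in Thy1-SSEA1- against Thy1+SSEA1- cells (7 pairs), gave no call. Of 30 collagen genes tested 0 rose and 0 fell (background 0.0129% in each direction), and 4 had an unadjusted p under 0.05, namely Col18a1, Col10a1, Col5a2 and Col15a1. Col18a1 averaged 114 FPKM in Thy1-SSEA1- and 40.3 FPKM in Thy1+SSEA1- libraries and was higher in 6 of 7 pairs (1.53, SE 0.45, limma adjusted p = 0.257). Day 2 stood apart. On that day Col1a1 was 2099 FPKM (Dppa2/4) and 2431 FPKM (control) in Thy1-SSEA1- libraries, against 84.6 FPKM (Dppa2/4) and 560 FPKM (control) in Thy1+SSEA1- libraries. With all days the Col1a1 difference was 0.73 and the Col3a1 difference 0.85, and without day 2, a choice made after seeing the data, they were -0.33 and -0.01. Col1a2 differed by 0.00 with all days and -0.54 without day 2. None of these passed, and leaving out the doubtful day 4 library with its pair gave 0 passing collagen genes as well. In that fit 3 of 30 collagens had an unadjusted limma p under 0.05, as did 1471 of all 15348 genes. The share of collagens was thus near that of all genes.

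Dppa2/4 cells were compared with control cells over the 13 strata that hold both. Of 31 collagen genes tested, 3 rose and 4 fell, where 15.6% of all 16835 genes tested rose and 7.75% fell, so the shares of collagens called lie near the background. The median difference was -0.08 over the collagens and 0.03 over all genes. The genes that rose are low-level ones, Col7a1, Col9a3 and Col27a1. Those that fell were Col1a1, Col15a1, Col28a1 and Col4a6.

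Col7a1 was higher in all 13 strata. In Thy1+SSEA1- cells of days 2, 4, 8 and 14 it was 6.83, 1.33, 4.24 and 7.64 FPKM in Dppa2/4 libraries, against 0.873, 0.517, 1.76 and 1.59 FPKM in control libraries. In Thy1-SSEA1- cells of days 2, 4, 8 and 11 it was 4.91, 4.71, 4.40 and 4.87 FPKM in Dppa2/4 libraries, against 4.59, 0.710, 1.23 and 0.492 FPKM in control libraries. In Thy1-SSEA1+ cells of days 8, 11 and 14 it was 2.35, 2.83 and 3.70 FPKM in Dppa2/4 libraries, against 0.0264, 0.266 and 0.992 FPKM in control libraries. The smallest gaps were on day 2 in Thy1-SSEA1- cells and in GFP+ cells, and the difference over all strata was 1.20 (SE 0.18, limma adjusted p = 0.000943).

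Col9a3, another type IX chain, ranged over 0.0829 to 6.23 FPKM (median 2.76) in Dppa2/4 libraries and 0.0960 to 1.14 FPKM (median 0.216) in control libraries. It was higher in 12 of 13 strata (1.35, SE 0.23, adjusted p = 0.00157), the exception being the day 4 Thy1+SSEA1- stratum with the doubtful library. Exons of Col9a3 share 234 bp, 6.07% of their length, with Tcfl5 on the opposite strand, and in the same strata Tcfl5 ranged over 0.534 to 17.8 FPKM (median 9.33) in Dppa2/4 and 0.436 to 12.5 FPKM (median 1.98) in control libraries. Whether counting used strand is not given in the sources used here, so reads of the shared stretch cannot be told apart. Col27a1, a fibrillar chain of cartilage, averaged 1.22 FPKM in Dppa2/4 and 0.629 FPKM in control libraries (0.43, SE 0.12, adjusted p = 0.0190). In the rtTA-MEF libraries, which this test did not use, Col7a1 was 6.05 FPKM in Dppa2/4 and 1.38 FPKM in control cells, and Col9a3 was 2.16 FPKM in Dppa2/4 and 0.0215 FPKM in control cells.

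Keratinocyte markers were examined beside Col7a1, since keratinocytes are a known source of it. Of 9 markers, 3 were under 1 FPKM in every OSKM library, and of 6 tested 2 rose, where 15.6% of all genes did. Their sum was 54.8 to 178 FPKM in Dppa2/4 and 44.8 to 150 FPKM in control libraries. The defining keratins Krt5 and Krt15 were at most 0.537 and 0.270 FPKM, and Krt14 at most 1.66 FPKM. Of 6 chondrocyte markers tested beside Col9a3 and Col27a1, 1 rose (Matn3, by 0.36), a share near the 15.6% of all genes, and 2 did without the stratum of the doubtful library, Runx2 being added. For the chondrocyte markers the sum was 2.68 to 27.7 FPKM in Dppa2/4 and 1.47 to 22.3 FPKM in control libraries. Their part in the results was not tested.

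Col1a1 fell, by 0.79 on the log2 scale (SE 0.24, adjusted p = 0.0304), with means of 310 FPKM in Dppa2/4 and 454 FPKM in control libraries and a lower value in 10 of 13 strata. Both arms carry the OSKM cassette in a Col1a1 allele. Its partner Col1a2 averaged 279 FPKM in Dppa2/4 and 466 FPKM in control libraries and did not pass (-0.62, SE 0.23, adjusted p = 0.0665). Col15a1 averaged 20.9 FPKM in Dppa2/4 and 61.7 FPKM in control libraries (-0.92, SE 0.31, adjusted p = 0.0434), and its call was lost without the stratum of the doubtful library (-0.83, adjusted p = 0.0722). Col28a1, a chain with von Willebrand factor A domains like those of type VI, averaged 0.869 FPKM in Dppa2/4 and 2.03 FPKM in control libraries (-0.68, adjusted p = 0.0434). Col4a6, X-linked like Col4a5, averaged 1.16 FPKM in Dppa2/4 and 2.39 FPKM in control libraries (-0.53, adjusted p = 0.0338). In the rtTA-MEF libraries the genes called lower were not lower in Dppa2/4 cells. There Col1a1 was 1431 FPKM in Dppa2/4 and 691 FPKM in control cells, and Col15a1 43.0 and 21.0 FPKM in that order. Col28a1 was 0.564 and 0.509 FPKM, and Col4a6 0.810 and 0.786 FPKM.

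Without the day 4 Thy1+SSEA1- stratum, 3 collagens rose and 4 fell, where 16.2% of all 16771 genes rose and 8.90% fell. Col10a1 (-0.87, limma adjusted p = 0.0478) passed in place of Col15a1. In that fit Col9a3 stood at 1.48 (adjusted p = 0.000567), Col7a1 at 1.24 (adjusted p = 0.000804) and Col1a1 at -0.80 (adjusted p = 0.0404). The downward calls depended on single strata. Leaving out the day 8 Thy1+SSEA1-, the day 14 Thy1+SSEA1- or the day 8 Thy1-SSEA1- stratum left 0 collagens lower. Leaving out each of the strata in turn kept 3 collagens higher. Over all genes, the fits that leave out single strata gave 852 to 1492 lower and 2120 to 2722 higher. Among the abundant genes that did not pass were Col3a1 (-0.33, adjusted p = 0.178), Col4a1 (0.24, adjusted p = 0.394), Col4a2 (0.26, adjusted p = 0.451), Col5a2 (-0.13), Col6a3 (0.16), Col6a1 (-0.21) and Col18a1 (0.37, adjusted p = 0.165).

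Whether the Dppa2/4 effect differed between gates was tested next. An interaction term set the Dppa2/4 effect in the 5 strata that are SSEA1+ or GFP+ against that in the 8 SSEA1- strata. Strata of days 2 and 4 are found only among the SSEA1- ones, so this term does not separate gate from day. In the GFP+ strata the arms held similar Dppa2 levels, and control Thy1-SSEA1+ libraries held Dppa2 too. The contrast in overexpression between the arms was thus smaller in these strata than in most SSEA1- strata. Of 31 collagens, 1 had a higher effect in SSEA1+ or GFP+ strata and 0 a lower one (background 0.511% higher, 0.505% lower). Unadjusted p-values under 0.05 were found for 6 of 7 basement membrane genes, 0 of 11 fibrillar genes and 0 of 13 others, and for 18.9% of all genes.

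Col4a5 was the gene that passed, with an interaction of 1.51 (SE 0.32, limma adjusted p = 0.0486). In Thy1-SSEA1+ cells of days 8, 11 and 14 it was 2.50, 11.5 and 10.7 FPKM in Dppa2/4 libraries, against 2.12, 3.21 and 7.62 FPKM in control libraries. In Thy1-SSEA1- cells of days 2, 4, 8 and 11 it was 38.3, 16.2, 9.85 and 17.7 FPKM in Dppa2/4 libraries, against 43.2, 34.4, 27.2 and 22.3 FPKM in control libraries. In Thy1+SSEA1- cells of days 2, 4, 8 and 14 it was 9.58, 37.9, 12.2 and 12.7 FPKM in Dppa2/4 libraries, against 34.1, 57.8, 42.1 and 28.1 FPKM in control libraries. In GFP+ cells of days 11 and 14 it was 0.997 and 0.697 FPKM in Dppa2/4 libraries, against 0.848 and 0.408 FPKM in control libraries. Dppa2/4 libraries were thus higher in 5 of 5 SSEA1+ or GFP+ strata (mean difference 0.51, or 0.25 without day 11 Thy1-SSEA1+) and lower in 8 of 8 SSEA1- strata (mean difference -1.0).

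The remaining interactions of this class did not pass. Col15a1 had 1.87 (adjusted p = 0.0504), with mean differences of 0.23 in SSEA1+ or GFP+ strata and -1.64 in SSEA1- strata. Col4a6 had 0.98 (adjusted p = 0.0585), Col4a1 0.96 (adjusted p = 0.142) and Col4a2 0.99 (adjusted p = 0.228). Col18a1 ran the other way, at -1.14 (adjusted p = 0.0513), with a mean difference of -0.33 in SSEA1+ or GFP+ strata and 0.81 in SSEA1- strata, where Dppa2/4 libraries were higher in 8 of 8. On day 8 in Thy1-SSEA1+ cells Col4a1 stood at 59.9 FPKM in the Dppa2/4 library and 12.7 FPKM in the control library, and Col18a1 at 37.9 FPKM in the Dppa2/4 library and 60.1 FPKM in the control library. Without the stratum of the doubtful library 2 collagens were higher, Col4a5 (1.57, limma adjusted p = 0.0349) and Col4a6 (1.07, adjusted p = 0.0286). The 1 collagen that was lower was Col18a1 (-1.04, adjusted p = 0.0458). Of all 16771 genes in that fit, 1.08% were higher and 0.972% lower. Leaving out single strata gave between 0 and 3 higher calls among the collagens and 5 to 181 among all genes. The Col4a5 call was kept in 4 of these 13 fits and lost in 9, with adjusted p-values between 0.0349 and 0.122, and it was also lost with no filter (adjusted p = 0.0734) and with quantile normalization (adjusted p = 0.0590).

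**Figure D3:**
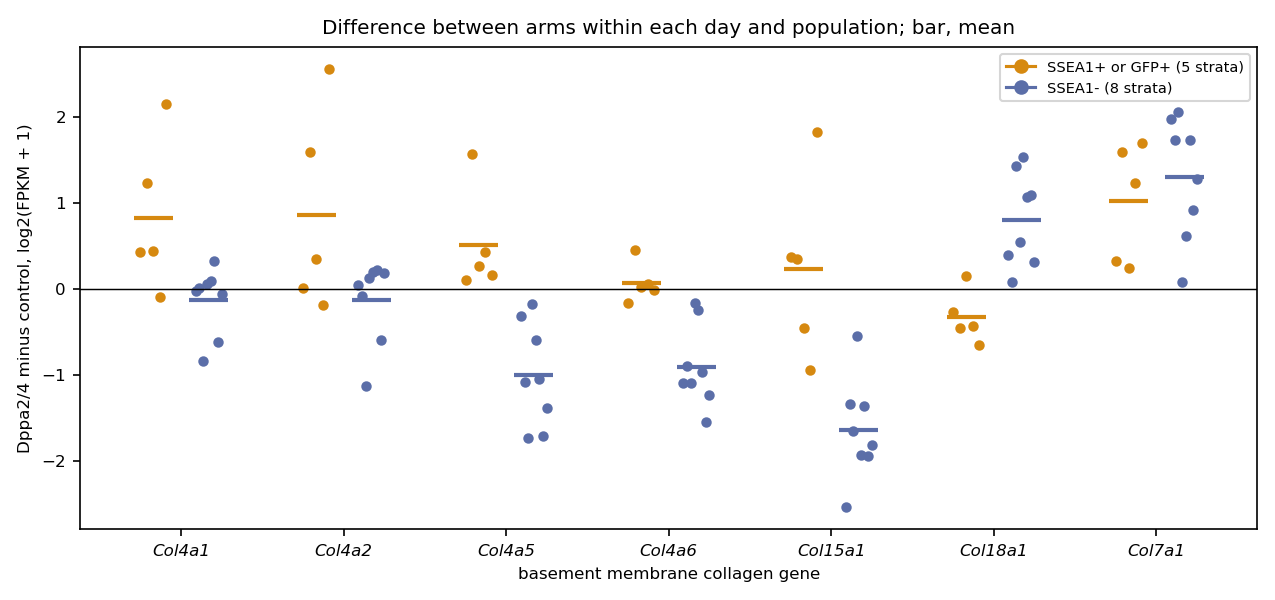
Differences in log2(FPKM + 1) between Dppa2/4 and control libraries in each of the 13 strata for the basement membrane collagens tested, with SSEA1+ or GFP+ strata apart from SSEA1- strata. Points of Col4a5 lie above 0 in the 5 SSEA1+ or GFP+ strata and below 0 in the 8 SSEA1- strata, those of Col18a1 lie above 0 in all SSEA1- strata, and those of Col7a1 lie above 0 in all 13.

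The Dppa2/4 effect on days 8 to 14 was set against that on days 2 and 4 in the same way. Strata of days 2 and 4 are all SSEA1-, so this term does not separate day from gate either. For 0 of 31 collagens did it differ (background 0.0178% higher, 0.00594% lower), and 3 had an unadjusted p under 0.05. Col18a1 had a mean Dppa2/4 difference of 1.15 on days 2 and 4 and 0.03 on days 8 to 14 (interaction -1.12, SE 0.29, limma adjusted p = 0.121). The others were Col10a1 (-1.85) and Col11a1 (0.93). Interactions of Col1a1, Col1a2, Col3a1, Col4a1 and Col4a2 were -0.01, 0.21, 0.15, 0.48 and 0.58. Without the stratum of the doubtful library 0 collagens passed, and Col18a1 stood at -0.99 (adjusted p = 0.239), Col10a1 at -1.30 and Col11a1 at 0.97. In that fit 2 of 31 collagens had an unadjusted limma p under 0.05, as did 2768 of all 16771 genes. The share of collagens was thus below that of all genes.

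Change over time was fitted per day within each SSEA1- gate, with the arm as a term. In Thy1+SSEA1- cells (8 libraries) 2 of 29 collagens rose and 0 fell (background 1.30% higher, 0.800% lower). On days 2, 4, 8 and 14 Col18a1 was 35.5, 46.6, 51.6 and 96.7 FPKM in Dppa2/4 cells and 12.6, 15.4, 23.6 and 91.5 FPKM in control cells, so it went up at each step in both arms. Its slope was 0.17 per day (SE 0.03) and that of Col16a1, a fibril-associated collagen, 0.12 per day (SE 0.02), each at a limma adjusted p of 0.0490. With that doubtful Dppa2/4 day 4 library left out, 8 of 28 collagens rose, where 11.5% of all genes did, including Col4a1 (0.11 per day, adjusted p = 0.024) and Col4a2 (0.12 per day, adjusted p = 0.0341), both at 0.10 and not passed with it. Leaving out any of the other 7 libraries left 0. Slopes of Col1a1 (0.02), Col1a2 (-0.02) and Col3a1 (0.05) did not pass.

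In Thy1-SSEA1- cells (9 libraries) 6 of 29 collagens fell and 0 rose (background 1.09% lower, 1.68% higher). Col1a1 was 2099, 635, 178, 121 and 133 FPKM in Dppa2/4 cells on days 2, 4, 8, 11 and 14, and 2431, 433, 405 and 155 FPKM in control cells on days 2, 4, 8 and 11. Its slope was -0.34 per day (SE 0.06, adjusted p = 0.0208). The others were Col6a2 (-0.26), Col5a2 (-0.25), Col6a1 (-0.23), Col1a2 (-0.23) and Col3a1 (-0.21). The type IV chains Col4a1 (-0.02) and Col4a2 (-0.06) did not pass. Without the day 2 libraries 0 collagens fell, and the Col1a1 slope was then -0.22 (limma adjusted p = 0.197). The calls were also lost without the control day 11 library alone (0 collagens). They dropped to 1 without the control day 2 library and 3 without the control day 8 library. Over all genes, leaving out single libraries left 1 to 142 lower.

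**Figure D4:**
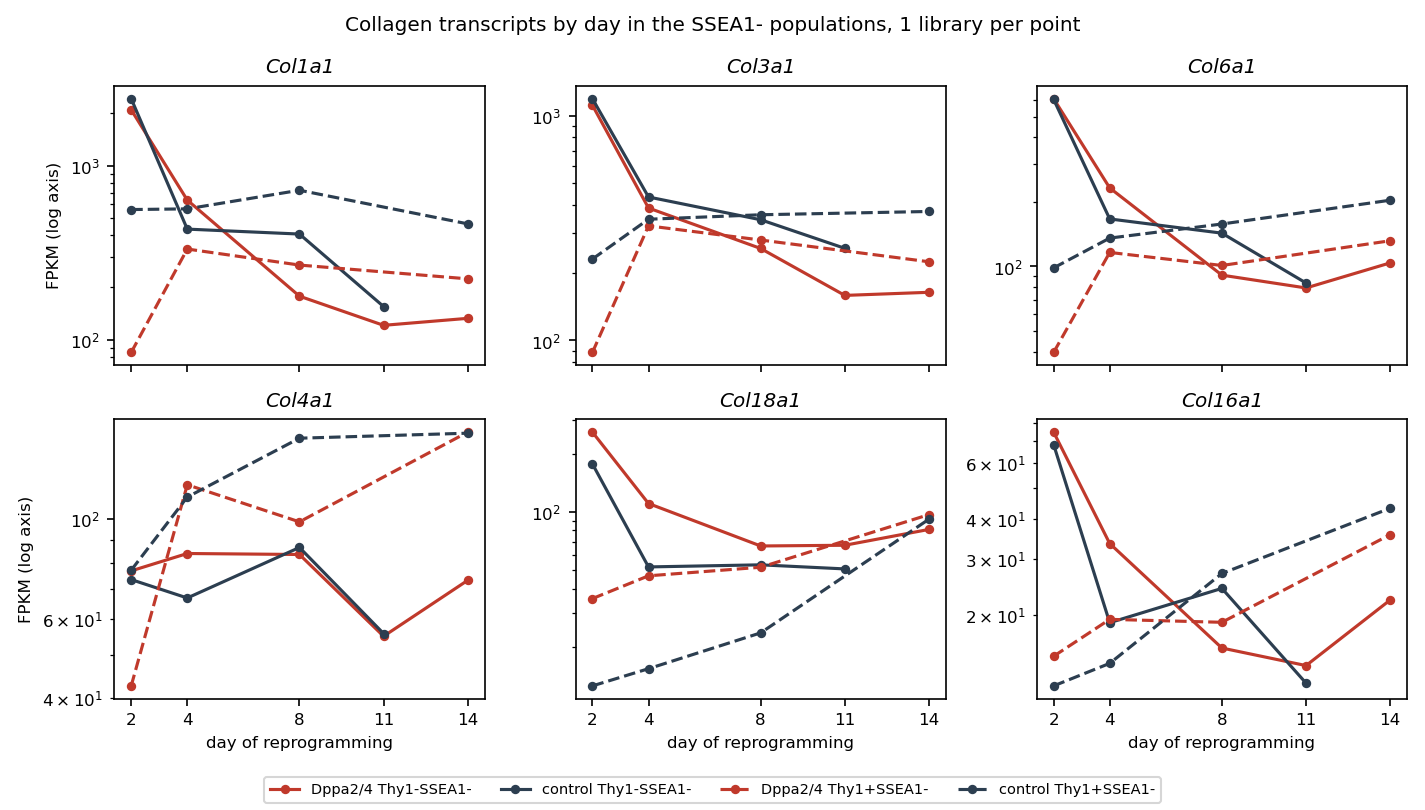
FPKM (log axis) of selected collagens by day in Thy1+SSEA1- and Thy1-SSEA1- cells, with Dppa2/4 and control libraries as separate lines. Col18a1 climbs over the days in Thy1+SSEA1- cells, Col1a1 drops after day 2 in Thy1-SSEA1- cells, and Col4a1 stays between 54.9 and 86.6 FPKM in Thy1-SSEA1- cells.

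OSKM cells of day 2 (4 libraries of the SSEA1- gates) were compared with the rtTA-MEF cells (2 libraries). None of 28 collagens passed limma (background 0.0345% higher, 0.0138% lower), and 0 had an unadjusted p under 0.05. Col1a1 was 84.6, 560, 2099 and 2431 FPKM in the OSKM libraries, and 1431 FPKM (Dppa2/4) and 691 FPKM (control) in rtTA-MEF cells, which lie inside that range. Col4a1 averaged 67.5 FPKM in OSKM and 66.4 FPKM in rtTA-MEF cells. With standard errors of 0.33 for Col4a1 and 1.40 for Col1a1, differences of those sizes were not detectable.

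Chains that assemble together were followed as ratios of FPKM within a library, over the 30 OSKM libraries, as a description. Col4a2 over Col4a1 stayed between 0.805 and 1.43 (median 1.10), although Col4a1 spanned 45.2-fold and Col4a2 41.3-fold between libraries. These are the genes whose promoter windows overlap, as printed above. Col6a2 over Col6a1, neighbours on chromosome 10, stayed between 0.299 and 0.506. Col1a1 over Col1a2, on chromosomes 11 and 6, ranged from 0.242 in the Dppa2/4 day 4 Thy1+SSEA1+ library to 1.87 in the Dppa2/4 day 2 Thy1-SSEA1- library. Col6a3 over Col6a1 ranged from 0.684 to 2.22, and Col4a6 over Col4a5, whose starts lie 1309 bp apart on the X chromosome, from 0.0379 to 0.227.

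**Figure D5:**
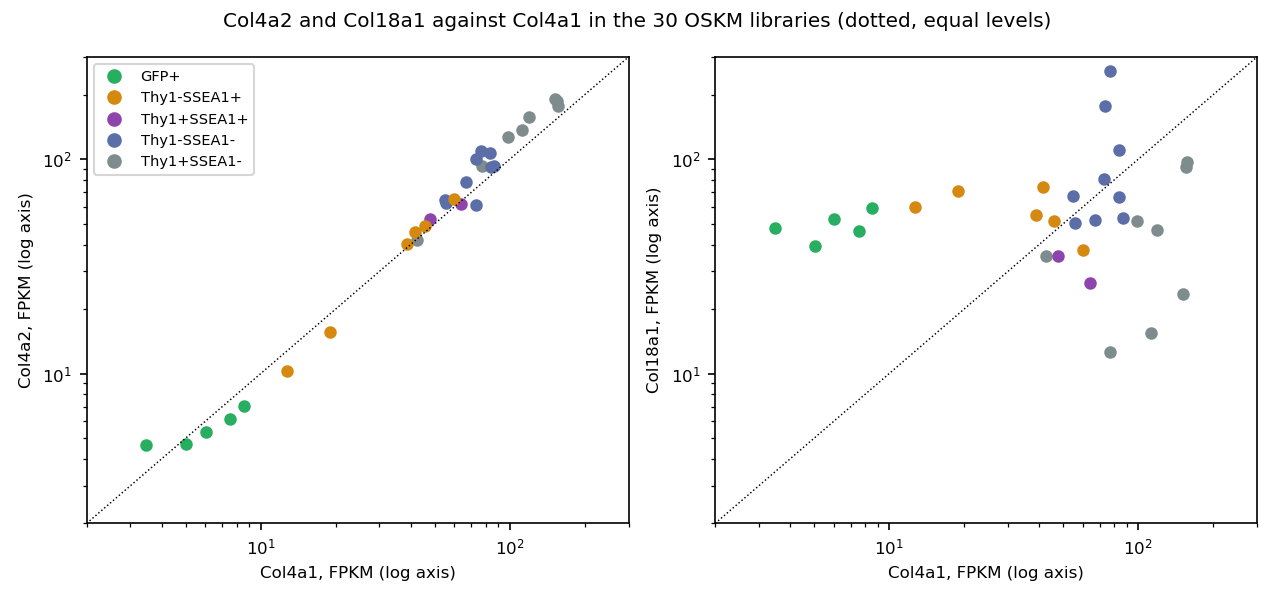
FPKM of Col4a2 (left) and of Col18a1 (right) against Col4a1 in each of the 30 OSKM libraries (log axes, points coloured by gate, dotted line at equal levels). The Col4a2 points follow the line of equal levels, with ratios between 0.805 and 1.43, and the Col18a1 points do not, with GFP+ libraries at 39.6 to 58.9 FPKM of Col18a1 where Col4a1 was 3.46 to 8.56 FPKM.

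Genes that modify, fold and cross-link collagen chains, from a list of 34, largely moved with the gates. Of 31 tested, 22 fell in Thy1-SSEA1+ against Thy1-SSEA1- cells and 23 in Thy1-SSEA1+ against Thy1+SSEA1- cells, with 0 higher in each, and 19 fell and 2 rose in GFP+ against Thy1-SSEA1+ cells. Lox, which cross-links fibrils, averaged 15.3 FPKM in Thy1-SSEA1+ and 107 FPKM in Thy1-SSEA1- libraries (-2.97). Serpinh1, the collagen chaperone Hsp47, averaged 20.1 FPKM in GFP+ and 113 FPKM in Thy1-SSEA1+ libraries (-2.40). The background shares for these comparisons are those given above for the collagens. Some listed genes are low, with Tll1 at 1 FPKM or more in 16 of the 30 OSKM libraries, and P4ha3 and Adamts2 in 23 each. For a gene that entered a test only through the higher gate, a fall was nearly the only outcome. Under Dppa2/4, 6 of 33 rose and 1 fell, close to the 15.6% and 7.75% of all genes. Those that rose include the prolyl hydroxylase gene P4ha1 (127 FPKM in Dppa2/4 and 76.7 FPKM in control libraries, 0.78) and Loxl2 (56.1 FPKM in Dppa2/4 and 31.2 FPKM in control libraries, 0.90), a cross-linker of type IV collagen.

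Non-collagen partners in basement membranes behaved less evenly. Of 12, 5 fell and 1 rose in Thy1-SSEA1+ against Thy1-SSEA1- cells, and 8 fell and 1 rose both in Thy1-SSEA1+ against Thy1+SSEA1- and in GFP+ against Thy1-SSEA1+ cells. Over all genes 12.4%, 13.5% and 25.9% fell and 9.55%, 10.6% and 19.5% rose in these comparisons, in that order. Under Dppa2/4, 3 of these 12 rose and 1 fell, where 15.6% of all genes rose and 7.75% fell. Nid1, the nidogen that joins laminin to type IV collagen, averaged 111 FPKM in Dppa2/4 and 65.9 FPKM in control libraries (0.76). Agrn was higher too (0.79), while the laminin chain gene Lama1 was lower (-0.61). Of 8 collagen receptors tested, 1 rose under Dppa2/4 and 0 fell, near the shares of all genes. It was Itgb1, the beta chain shared by the collagen-binding integrins, with 319 FPKM in Dppa2/4 and 223 FPKM in control libraries (0.53). In Thy1-SSEA1+ cells 5 of 7 receptors fell against Thy1-SSEA1- and 5 of 6 against Thy1+SSEA1-. Mrc2, Ddr2 and Itga11 fell against both SSEA1- gates.

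The remaining collagens were low. In every OSKM library 11 stayed under 1 FPKM, and 36 of the 43 had a value above 0 in all 30. The type IV chains Col4a3 and Col4a4, typical of kidney glomeruli, reached at most 0.205 and 0.138 FPKM. Transmembrane collagens were low throughout, with means of at most 0.360 FPKM. Of this group Col17a1, the hemidesmosome collagen, reached 0.939 FPKM, in a GFP+ library. Col2a1, the main chain of cartilage fibrils, reached 4.44 FPKM in a Thy1-SSEA1- library and was 0.242 to 0.932 FPKM in GFP+ libraries. Levels near these are at or below the filter of 1 FPKM in 2 libraries, and differences there were not detectable or not tested.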

How the data were processed

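Polyadenylated RNA of sorted mouse cells was sequenced. Per the submitters' processing notes, reads were processed with TopHat2 and Cuffdiff on mm10. The authors deposited FPKM values per gene. Tool versions, annotation, strand setting and normalization are not given in the sources used here. The table has 33 value columns, of which 32 were matched to samples by title and 1 column that is of no sample was not used. The control day 11 Thy1+SSEA1- sample was not analysed here. The rtTA-MEF columns name arm and day only.

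The collagen genes, the gene lists and the tests were chosen with earlier results of these data known. Values were taken as log2(FPKM + 1), genes with FPKM of at least 1 in 2 libraries of a fit were kept, and limma 3.58.1 in R 4.3.3 was fitted over all genes with moderated variances along a mean trend and Benjamini-Hochberg adjustment (threshold 0.05). Stratum of day and gate, or arm and day, was a block. The block comes from the shared day, gate or arm in the labels, and no replicate numbers were used. The collagens given with values are all those past the threshold (at most the 12 largest in a comparison), the 8 with the highest mean, and Col1a1, Col1a2, Col3a1, Col4a1 and Col4a2 throughout. Col18a1, Col9a2, Col9a3 and low members were added after their values were seen. From each other list up to 3 genes passing the threshold are named. The values of 1 marker gene are not reported here. Depth was read from the steps of FPKM values and limits the precision of low genes. FPKM hold no counts, so no count test was run. Fits were tested on simulated data. Alternatives changed the pseudocount, filter, normalization, trend, block, days and libraries.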

Additional observations from a re-analysis of the deposited data

Results flagged for a closer look

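For Col4a5 the effect of Dppa2/4 overexpression differed between SSEA1+ or GFP+ strata and SSEA1- strata, by a test of the difference itself. Strata of days 2 and 4 are all SSEA1-, so the test does not separate gate from day. In the GFP+ strata the arms held similar Dppa2 levels, and control Thy1-SSEA1+ libraries held Dppa2 too. The interaction was 1.51 on the log2(FPKM + 1) scale (SE 0.32, limma adjusted p = 0.0486), with a mean difference of 0.51 in SSEA1+ or GFP+ strata and -1.0 in SSEA1- strata. The call was lost with no filter on low values (adjusted p = 0.0734), with quantile normalization (adjusted p = 0.0590) and in 9 of the 13 fits that leave out 1 stratum, where the interaction was 1.25 to 1.63. No cause was tested.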

How the results depend on the processing

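With 1 library for each arm, day and gate, spread is known only between strata, GFP+ and Thy1-SSEA1+ rest on 5 or 6 libraries, and low collagens are limited by depth. Counts are of collagen genes. For Dppa2/4 against control, 6 rose and 0 fell with no filter, 0 rose and 2 fell with a mean of at least 5 FPKM, 0 fell with no replicate block, without day 2 or without day 14, 1 fell without day 8 and 2 fell with the rtTA-MEF pair added. Leaving out single strata gave 3 higher in each case and 0 to 5 lower. For the interaction with gate, 1 was lower at a pseudocount of 0.1, 0 were higher with no filter or quantile normalization, 2 were higher and 1 lower without the day 4 Thy1+SSEA1- stratum, and leaving out single strata gave 0 to 3 higher and 0 to 1 lower. In one fit of all OSKM libraries 1 rose in Thy1-SSEA1- against Thy1+SSEA1- and 1 in GFP+ against Thy1-SSEA1+. In GFP+ against Thy1-SSEA1+ 12 fell with a mean of at least 5 FPKM, where fewer genes are tested, and 1 rose with quantile normalization. Against Thy1+SSEA1-, 0 fell in Thy1-SSEA1+ with no filter, where more genes are tested. Leaving out single pairs left 15 to 17 lower in Thy1-SSEA1+ against Thy1-SSEA1-, 14 to 17 against Thy1+SSEA1- and 14 to 18 in GFP+ against Thy1-SSEA1+. Per day in Thy1+SSEA1-, 0 rose with no filter, no trend or without day 2, 8 without the library labelled Dppa2/4 day 4, and 0 to 8 without single libraries. Per day in Thy1-SSEA1-, 1 fell with no filter, 0 without day 2 and 0 to 7 without single libraries. Signs turned for values that had not passed. In Thy1-SSEA1- against Thy1+SSEA1-, Col1a2 was -0.22 in one fit of all libraries and -0.35 to 0.14 without single pairs, and without day 2, added after seeing the data, Col1a1, Col3a1 and Col1a2 were -0.33, -0.011 and -0.54. Per day in Thy1+SSEA1-, Col1a1 and Col3a1 were -0.045 and -0.021 without day 2, and Col1a1 was -0.033 to 0.066 without single libraries. The interaction with days 8 to 14 was 0.000653 for Col1a1 with quantile normalization, and -0.65 to 0.43, -0.15 to 0.40 and -0.17 to 0.26 for Col1a1, Col1a2 and Col3a1 without single strata. OSKM against rtTA-MEF gave 0.00859 for Col4a1 with quantile normalization, and without single libraries -1.76 to 0.76, -0.64 to 0.28, -0.45 to 1.11, -0.36 to 0.35 and -0.87 to 0.73 for Col1a1, Col1a2, Col3a1, Col4a1 and Col4a2. Of single-gene values under the settings that left out no library or day, 656 kept direction and side of the threshold, 60 lost the call, 4 gained it, 51 without a call moved and 3 turned. The cause was not tested.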
